A study of Danio rerio with 18 samples.

Results

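The m5C sites of zebrafish mRNA were compared between 4 hours post fertilisation (hpf) and 2 hpf, the pair of stages around the onset of genome activation. Members were all sites in the deposited list of either stage, matched by genomic position and strand. They came to 7507 distinct sites in 4575 genes, of 9047 distinct sites in the lists of all 9 stages of the series. Of them, 4587 sites in 3182 genes were listed at both stages, 1302 sites at 4 hpf and not at 2 hpf, and 1618 sites at 2 hpf and not at 4 hpf. Membership used only the presence of a site in a list, while the 2-fold classes of genes below were chosen by coverage.

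The early zebrafish embryo runs on mRNA and protein that the mother laid down in the egg. The embryo's own genome is switched on in a broad wave during the blastula stages, while maternal mRNAs are cleared, and this change is called the maternal-to-zygotic transition. 5-methylcytosine (m5C) in mRNA is written mainly by the methyltransferases NSUN2 and NSUN6, and reader proteins such as ALYREF and YBX1 bind it.

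Both groups were wild-type AB embryos, reared at 28.5 °C. Each stage had 2 libraries, made from polyadenylated RNA of pools of about 200 embryos. Bisulfite turns unmethylated cytosine into a base that is read as T, whereas m5C is still read as C. The m5C level of a site is the share of C among its C and T reads, and its coverage is the sum of those reads. The authors combined the libraries of a stage, so each site has 1 coverage and 1 level per stage. No value below therefore has a spread between replicates, the p-values compare pooled libraries and not embryos, and all intervals are 95% intervals for counting error or for the spread over sites. PCR copies of a molecule were not told apart. In whole embryos, fewer cells that carry an mRNA and less of it per cell cannot be told apart either.

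At 4 hpf, 5889 sites in 3862 genes were listed, with a median coverage of 167 reads. At 2 hpf there were 6205 sites in 3990 genes, with a median of 148 reads. Every listed site had at least 20 reads and a level of at least 10%. A site enters a list only when it is methylated, so the lists are not a census of the mRNAs present. Of 8 marker genes of oocyte and germ plasm, 3 (buc, ddx4 and zar1) were in both lists. None of 15 marker genes that the zygote transcribes first was in either list, so the presence of new zygotic mRNA at 4 hpf could not be checked with those markers.

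Coverage was somewhat higher at 4 hpf than at 2 hpf for most shared sites. The median coverage was 213 reads at 4 hpf, against 183 at 2 hpf. The median ratio of 4 over 2 hpf was 1.16 (1.14 to 1.18), the middle 50% of sites lay between 0.897 and 1.51, and 65.1% of sites were above 1. The lowest ratio was 0.222 and the highest 5.50. Coverage at the 2 stages was strongly related across sites (Pearson r of log2 coverage 0.938 over 4587 sites, a description, since sites of a gene and of a library are not independent). Coverage was not scaled for depth, so a ratio of 1.16 and not 1 is the middle of these data.

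Per gene, the median coverage over the shared sites was compared. The median gene ratio was 1.15 over 3182 genes. Coverage was at least 2-fold higher at 4 hpf in 287 genes (9.02% of 3182) and at least 2-fold lower in 97 genes (3.05%). The higher genes had a median coverage of 319 reads at 4 hpf and 129 at 2 hpf, with a median ratio of 2.31. The lower genes had 144 reads at 4 hpf and 360 at 2 hpf, with a median ratio of 0.438. A 3-fold difference was reached by 21 genes that were higher and by 14 that were lower. No test of these ratios was possible without values per library. The counting intervals of all sites of a gene lay beyond 2-fold in 94 of the higher and 38 of the lower genes.

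The balance between higher and lower genes depended on how depth was treated. Of all genes past 2-fold, 74.7% were higher at 4 hpf with coverage as deposited, 61.6% after division by the ratio of mapped reads of the libraries, and 44.3% after division by the median ratio of shared sites, with 139 genes higher and 175 lower. The order of the genes does not change under either scaling. At the edge of the threshold, nnt with 182 reads at 4 hpf and 91 at 2 hpf was just inside (ratio 2), and gbp3 with 402.5 and 201.5 reads was just outside (1.998). On the other side, acpl2 had 37 reads at 4 hpf and 74 at 2 hpf (0.5), and the gene csnk1a1 with the ID ENSDARG00000052674 had 400 and 797 (0.502).

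**Figure D1:**
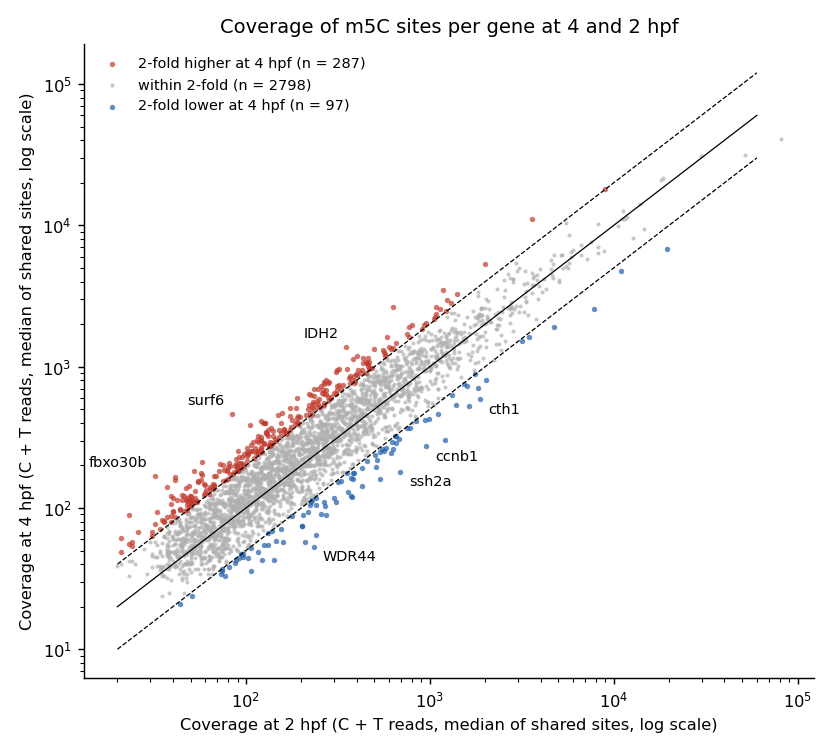
Each point is a gene, with the median coverage of its shared sites at 2 hpf on the x axis and at 4 hpf on the y axis (C + T reads, both log scales). The solid line marks equal coverage and the dashed lines 2-fold differences. The 287 genes that were 2-fold higher at 4 hpf (red) outnumber the 97 that were 2-fold lower (blue) as the reads were deposited, and most genes (grey) follow the diagonal.

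Sites within a gene gave similar ratios. In 925 genes with at least 2 shared sites, the highest site ratio of a gene was a median of 1.23 times its lowest, and 77.6% of the genes stayed within 1.5 times. Of the genes 2-fold higher at 4 hpf, 67 had at least 2 shared sites. In 65 of these all sites lay above 1, and in 31 every site was past 2-fold. Of the genes 2-fold lower, 22 had at least 2 shared sites, with all sites below 1 in 21 and past 2-fold in 13. Both sets of genes were chosen by the coverage of these same sites. Their counts therefore describe the chosen genes and are no independent sign that sites of a gene agree.

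The largest ratio belonged to surf6, a nucleolar protein of ribosome assembly. Its site on chromosome 5 (position 34895541 of the Zv9 assembly) was covered by 462 reads at 4 hpf and 84 at 2 hpf, a ratio of 5.50 (4.35 to 7.03 by counting). Its level was 12.1% at 4 hpf and 13.1% at 2 hpf, so its C and T reads were both more numerous in the same proportion. The site was listed at neither 0 nor 6 hpf.

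The F-box gene fbxo30b, whose product is a subunit of ubiquitin ligases, had 167 reads at 4 hpf and 32 at 2 hpf (5.22). This ratio rests on 1 shared site. Over all listed sites of the gene, shared or not, the ratio was 0.709, so its direction depended on the sites taken. The listed positions were not all the same at the 2 stages, so that value does not compare like with like. The uncharacterised gene si:ch211-195b21.5 had the deepest site among the 10 largest ratios, with 2622 reads at 4 hpf and 632 at 2 hpf (4.15, and 2.13 over all its listed sites). IDH2, the mitochondrial NADP-dependent isocitrate dehydrogenase, had 1384 reads at 4 hpf and 351 at 2 hpf (3.94). Its level was 13.7% at both stages, from 189 C reads at 4 hpf and 48 at 2 hpf, and was likewise close to the 10% minimum.

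Genes of transcription, chromosome structure and translation were also among the 10 largest ratios. The zinc finger transcription factor yy1a had 165 reads at 4 hpf and 41 at 2 hpf (4.02). The transcription factor stat6 had 212 reads at 4 hpf and 58 at 2 hpf (3.66). The cohesin subunit stag1a had 89 reads at 4 hpf and 23 at 2 hpf (3.87, counting interval 2.42 to 6.42), among the shallowest of these sites. CKAP2L, a protein of the mitotic spindle, had 141 reads at 4 hpf and 37 at 2 hpf (3.81). For adgb, which encodes androglobin, 157 reads were counted at 4 hpf and 41 at 2 hpf (3.83). The beta subunit of translation initiation factor 2, eif2s2, had 384 reads at 4 hpf and 105 at 2 hpf (3.66). All 10 genes had 1 shared site each, and all 10 stayed past 2-fold under both scalings for depth.

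The lowest ratio belonged to WDR44, a WD repeat protein that binds Rab11 in mammals, with 53 reads at 4 hpf and 233 at 2 hpf (0.227, counting interval 0.165 to 0.308). Next was fam129ba, a gene of the Niban family, with 304 reads at 4 hpf and 1211 at 2 hpf (0.251). The cofilin phosphatase gene ssh2a had 181 reads at 4 hpf and 688 at 2 hpf (0.263), and its level was high at both stages, 75.1% at 4 hpf and 69.6% at 2 hpf. In sbf2, a gene of the myotubularin family, both shared sites were lower at 4 hpf, with 39 reads at 4 hpf against 176 at 2 hpf at one and 75 against 242 at the other. No site of these 4 genes was called for a change of level.

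Some of the genes with the lowest ratios are known from the egg and the cell cycle. The mitotic cyclin ccnb1, which drives entry into mitosis with Cdk1, had 273 reads at 4 hpf and 952 at 2 hpf (0.287, counting interval 0.25 to 0.328). Its level was 34.8% at 4 hpf and 33.4% at 2 hpf. The CCCH zinc finger gene cth1, a maternal mRNA of the family of mRNA decay factors around tristetraprolin, had 589 reads at 4 hpf and 1862 at 2 hpf (0.316). The gene listed as zgc:158856 and now named slbp2, a histone mRNA stem-loop binding protein, had 160 reads at 4 hpf and 533 at 2 hpf (0.300). Another 3 of the 10 have no descriptive name, zgc:101562 (ratio 0.266), si:ch211-214c7.4 (0.303) and zgc:55413 (0.316). All 10 stayed past 2-fold under both scalings for depth.

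**Figure D2:**
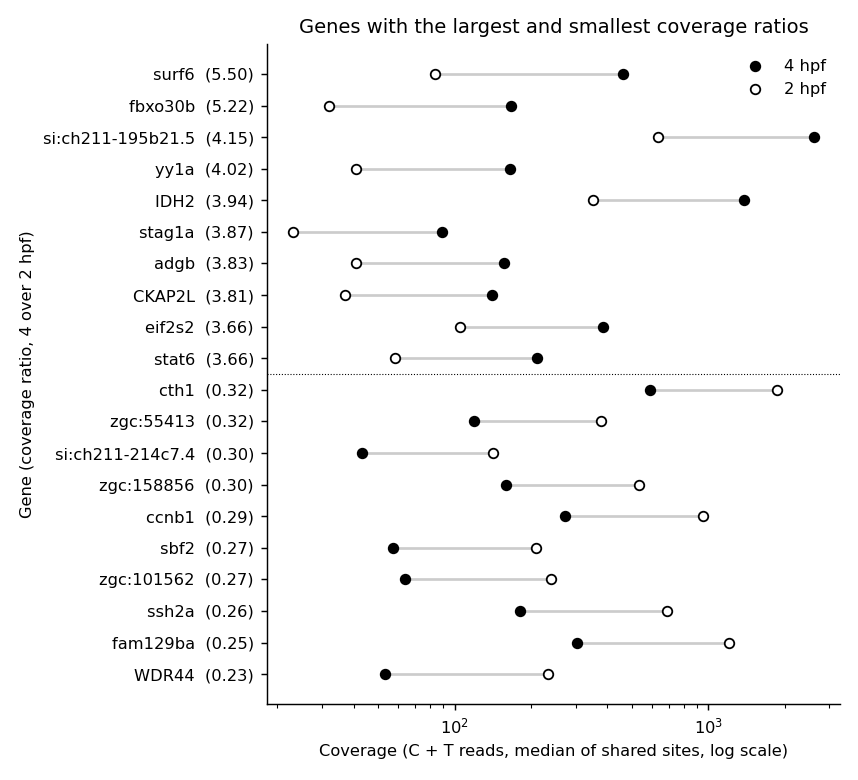
Coverage at 4 hpf (filled circles) and at 2 hpf (open circles) for the genes with the 10 largest and the 10 smallest coverage ratios, 1 gene per row, on a log scale of C + T reads. The ratio stands beside each name. The genes above the dotted line run from stat6 (3.66) up to surf6 (5.50), and those below it from cth1 (0.32) down to WDR44 (0.23).

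The stages before and after the pair, which the ratio did not use, were then read for the same genes. At 0, 2, 4 and 6 hpf, the ccnb1 site had 2709, 952, 273 and 78 reads, and the cth1 site 5744, 1862, 589 and 93 reads. The fam129ba site had 1382, 1211, 304 and 56 reads in the same order. These 3 sites were lower at each later stage. The zgc:101562 site did not follow this order, with 51, 241 and 64 reads at 0, 2 and 4 hpf. It was not listed at 6 hpf. Sites of the remaining genes of the 10 lowest ratios were lower at each later stage at which they were listed. Among the genes higher at 4 hpf, the IDH2 site had 190, 351, 1384 and 1439 reads at 0, 2, 4 and 6 hpf, and the adgb site 125, 41, 157 and 95 reads, with no steady order. The stat6 site, not listed at 0 hpf, had 58, 212 and 128 reads at 2, 4 and 6 hpf, and the si:ch211-195b21.5 site, not listed at 6 hpf, had 84, 632 and 2622 reads at 0, 2 and 4 hpf. The sites of surf6, fbxo30b, yy1a, stag1a, CKAP2L and eif2s2 were listed at neither 0 nor 6 hpf.

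Coverage at 6 hpf over that at 0 hpf was taken for genes with a site listed at all 4 stages. Among genes 2-fold higher at 4 hpf, 90 had such a site, and 83 of them had a ratio of 6 over 0 hpf above 1 (median 4.09, middle 50% 1.99 to 8.90). Among genes 2-fold lower, 39 had such a site, and 2 of them were above 1 (median 0.0758). Over all genes with such a site it was 662 of 1340 (median 0.985). Listing itself also differed. Of sites in the genes higher at 4 hpf, 43.8% were in the list of 0 hpf and 56.2% in that of 6 hpf, whereas for sites in the lower genes the shares were 90.3% and 40.3%. Over all shared sites they were 64.1% and 48.5%.

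Gene lists were then read by the coverage ratio of their members. Medians stand beside the 1.15 of all 3182 genes, and a scaled median is the median of a list divided by the median ratio of shared sites. Scaled counts of a list are to be read beside those of all 3182 genes. These were 139 higher and 175 lower after scaling by the median, and 207 and 129 after scaling by mapped reads. No list was tested.

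Genes of ribosome biogenesis, which process ribosomal RNA and assemble ribosomal subunits in the nucleolus, had the highest median of the lists with at least 10 members. Of 50 members with a shared site, 21 were 2-fold higher at 4 hpf (42.0%, against 9.02% of all genes). On the lower side there were 0, against 3.05% of all genes. Their median ratio was 1.74, and 1.5 scaled. After scaling by the median, 11 were 2-fold higher and 3 were 2-fold lower, against 139 and 175 of all 3182 genes. The 3 lower ones were those with the lowest ratios, ddx31 (0.51), dcaf13 (0.51) and polr1c (0.58). This list was put together after surf6 and others had been seen to be high, so its count describes these genes and gives no independent support.

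Its deepest member was ncl, nucleolin, an abundant nucleolar protein, with 18008 reads at 4 hpf and 8905 at 2 hpf (2.02, counting interval 1.97 to 2.07). pwp1, a WD repeat protein of ribosome assembly, had 949 reads at 4 hpf and 312 at 2 hpf (3.04). krr1 of the small subunit processome had 468 reads at 4 hpf and 158 at 2 hpf (2.96). The counting intervals of all 3 began at 1.97 or above. The RNA helicase gene ddx24 had 799 reads at 4 hpf and 273 at 2 hpf (2.93), and the nucleolar RNA-binding protein gene rbm28 692 and 245 reads (2.82). utp3 and utp18, both of the small subunit processome, had ratios of 2.46 and 2.82. gtpbp4, a GTPase of the large subunit, had a ratio of 2.63.

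Of 75 shared sites in the list, 1 was called higher in level at 4 hpf and 3 lower, near the shares over all shared sites (1.92% higher and 4.03% lower). The median level was 19.9% at 4 hpf and 23.7% at 2 hpf, but the median change per site was -0.838 points, against -0.635 over all shared sites. Among the called sites, esf1 was at 71.2% in 240 reads at 4 hpf, against 86.4% in 103 reads at 2 hpf (Fisher's exact test, adjusted p = 0.0443, and 0.294 with extra spread). PELP1 was at 25.5% at 4 hpf and 46.8% at 2 hpf, and nol6 at 41.0% at 4 hpf and 24.5% at 2 hpf. With extra spread PELP1 kept its call (adjusted p = 0.00963 by the beta-binomial z test) and nol6 did not (0.134).

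Aminoacyl-tRNA synthetases, which load tRNAs with amino acids, were also put together after values had been seen. Of 14 with a shared site, 3 were 2-fold higher at 4 hpf (21.4%, against 9.02% of all genes). On the lower side there were 0, against 3.05% of all genes. After scaling by the median, 1 was higher and 1 lower. Their median ratio was 1.48, and 1.28 scaled. aars, for alanine, had 2166 reads at 4 hpf and 1047 at 2 hpf (2.07), gars, for glycine, 121 and 39 (3.10), and farsa, for phenylalanine, 113 and 49 (2.31).

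The machinery of mRNA decay and deadenylation had a median ratio of 1.43 over 34 genes, and 1.23 scaled. Of these, 5 were 2-fold higher at 4 hpf (14.7%, against 9.02% of all genes) and 0 were 2-fold lower (against 3.05%). After scaling by the median, 3 stayed past 2-fold. cnot3a, a subunit of the CCR4-NOT deadenylase, had 346 reads at 4 hpf and 129 at 2 hpf (2.68). TNRC6A, the GW182 protein that links microRNA complexes to deadenylation, had 546 reads at 4 hpf and 248 at 2 hpf (2.2). The exosome subunits exosc4 (2.99) and exosc1 (2.04) are held by the ribosome biogenesis list too. Other members of CCR4-NOT were at 1.67 (cnot1) and 1.76 (cnot2). The lowest ratio in the list was that of khsrp, an RNA-binding protein of AU-rich element decay, with 785 reads at 4 hpf and 1176 at 2 hpf (0.668).

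Writers and readers of m5C and other RNA modifications had a median ratio of 1.17 over 25 genes, near that of all genes, and 1.01 scaled. Of these, 4 were 2-fold higher at 4 hpf (16%, against 9.02% of all genes) and 0 were 2-fold lower (against 3.05%). After scaling by the median, 2 were 2-fold higher. igf2bp3, an RNA-binding protein of the family that stabilises maternal mRNA, had 596.5 reads at 4 hpf and 188.5 at 2 hpf (3.16). ythdc1, a nuclear m6A reader, had 506 reads at 4 hpf and 173 at 2 hpf (2.93), and the m6A demethylase gene alkbh5 347 and 164 (2.12). The tRNA dihydrouridine synthase gene dus1l had 1362 reads at 4 hpf and 627 at 2 hpf (2.17).

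The m5C writers themselves were not among the genes past 2-fold. nsun2 had 4220 reads at 4 hpf and 4650 at 2 hpf (0.908) with a level of 11.2% at 4 hpf and 13.1% at 2 hpf, and NSUN6 had a ratio of 0.90. alyref, the nuclear m5C reader, had 498 reads at 4 hpf and 384 at 2 hpf (1.30), with a level of 57.0% at 4 hpf and 55.2% at 2 hpf.

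Genes of the cell cycle and of the replication checkpoint were found past 2-fold in both directions. Of 52 genes, 4 were 2-fold higher at 4 hpf and 4 were 2-fold lower (7.69% each, against 9.02% and 3.05% of all genes). The even split holds only for coverage as deposited. After scaling by the median, 1 was higher and 6 lower, against 139 and 175 of all 3182 genes. After scaling by mapped reads, 2 were higher and 5 lower, against 207 and 129 of all genes. The median ratio was 1.01, which fell below 1 under both scalings for depth (0.869 after scaling by the median). On the higher side were, beside stag1a, the replicative helicase subunits mcm5 with 1468 reads at 4 hpf and 651.5 at 2 hpf (2.25) and mcm4 with 2799 and 1308 (2.14), and the single-strand DNA-binding subunit rpa2 with 335 and 167 (2.01). On the lower side were, beside ccnb1, the condensin subunit smc2 with 74 reads at 4 hpf and 201 at 2 hpf (0.368), the cyclin ccna1 with 426 and 986 (0.432), and the topoisomerase top2a with 105 and 224 (0.469). Not every helicase subunit was higher, since mcm7 had 1976 reads at 4 hpf and 2373 at 2 hpf (0.833). cdc20, an activator of the anaphase-promoting complex, had 8142 reads at 4 hpf and 12730 at 2 hpf (0.640).

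Genes of the oocyte and germ plasm had the lowest median of the lists with at least 10 members, 0.824 over 24 genes, and 0.709 scaled. A ratio above 1 was found in 8 of the 24 genes. Of all 24, 4 were 2-fold lower at 4 hpf (16.7%, against 3.05% of all genes) and 1 was 2-fold higher (4.17%, against 9.02%), igf2bp3. The lower ones were cth1, slbp2, the microtubule linker HOOK2 with 118 reads at 4 hpf and 300 at 2 hpf (0.393), and celf1, a regulator of mRNA decay and translation, with 369.5 and 777.5 (0.475). Egg coat genes were lower at 4 hpf without reaching 2-fold, zp3b with 375 reads at 4 hpf and 459 at 2 hpf (0.817) and zp3a.2 with 201 and 311 (0.646). The linker histone of the oocyte, h1m, was the deepest of the list with 31447 reads at 4 hpf and 52030 at 2 hpf (0.604). In contrast, the oocyte gene zar1 had 1031 reads at 4 hpf and 661.5 at 2 hpf (1.56).

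Genes of the germ plasm itself lay on both sides of 1. buc, the organiser of the Balbiani body, had 6128 reads at 4 hpf and 5213 at 2 hpf (1.18). The germ cell helicase gene vasa, also called ddx4, had 1061 reads at 4 hpf and 1059 at 2 hpf (a ratio of 1.002), with a level of 48.4% of these at 4 hpf and 48.3% at 2 hpf. tdrd7 had 663 reads at 4 hpf and 658 at 2 hpf (1.01). dnd, a protector of germ cell mRNAs, had 143 reads at 4 hpf and 218 at 2 hpf (0.656).

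Ribosomal protein genes had a median ratio of 0.871 over 20 genes, and 0.750 scaled. A ratio above 1 was found in 5 of them, and none was past 2-fold in either direction. Over all genes, 9.02% were 2-fold higher and 3.05% lower. rps3a had 4992 reads at 4 hpf and 5622 at 2 hpf (0.888), rps15a 2432 and 3254 (0.747), and rpl26 4899 and 4580 (1.07). Reads of these genes can be shared with near-identical copies and pseudogenes, so single values are less certain.

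The remaining lists had medians near that of all genes. Translation initiation and elongation factors had a median of 1.15 over 21 genes. Of these, 5 were 2-fold higher at 4 hpf (23.8%, against 9.02% of all genes) and 0 were 2-fold lower (against 3.05%). The higher ones included eif3ha, a subunit of initiation factor 3, with 278 reads at 4 hpf and 107 at 2 hpf (2.60). Also higher was eif5b, a subunit joining factor, with 735.5 and 335.5 (2.19). The symbol serbp1a stands for 2 gene IDs, both past 2-fold (2.43 and 2.18). After scaling by the median, 3 were 2-fold higher. Among the elongation factors, eef1a1l1 had 14179 reads at 4 hpf and 13842 at 2 hpf (1.02), and eef1b2 6617 and 8796 (0.752).

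Genes of transcription by RNA polymerase II had a median ratio of 1.15 over 39 genes. Here 1 gene was 2-fold higher (2.56%) and 2 were 2-fold lower (5.13%), against 9.02% and 3.05% of all genes. ercc2, a helicase of the general factor TFIIH, had 402 reads at 4 hpf and 127 at 2 hpf (3.17). The polymerase subunit polr2d had 90 reads at 4 hpf and 257 at 2 hpf (0.350), while polr2b had 2620 and 2000 (1.31). The general factor gtf2b had 52 reads at 4 hpf and 106 at 2 hpf (0.491).

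Chromatin genes had a median of 1.16 over 88 genes, with 5 higher (5.68%, against 9.02% of all genes) and 1 lower (1.14%, against 3.05%). After scaling by the median, 2 were higher and 2 lower. As deposited, the higher ones were baz1b (2.48), the DNA methyltransferase dnmt3aa (2.35), the histone demethylases KDM5A (2.22) and kdm4b (2.05), and the remodeller chd8 (2.04). prmt1, the main arginine methyltransferase, was lower, with 291 reads at 4 hpf and 624 at 2 hpf (0.466).

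Maternal activators of the zygotic genome had a median ratio of 1.11 over 14 genes. None was past 2-fold, against 9.02% of all genes higher and 3.05% lower. sox19b, a maternal SoxB1 factor that opens chromatin, had 380 reads at 4 hpf and 649 at 2 hpf (0.586), and nanog had a ratio of 0.66. In contrast, the co-activators crebbpa (1.92) and ep300b (1.5) were above the median of all genes. For the lists of RNA polymerase II, chromatin, translation factors and maternal activators, the scaled medians were 0.992, 0.997, 0.991 and 0.958, so the side of 1 on which they fall depends on the scaling. Solute carriers (44 genes) were at 1.05, and at 0.906 scaled. The 2 sites on the mitochondrial genome, both in 1 gene, had a median ratio of 0.767.

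Of the 93 symbols on the list of zygotic transcripts, 3 were listed at all. All 3 had a site at 2 hpf already, so maternal and zygotic mRNA cannot be told apart in them. krt8, a keratin of the enveloping layer, had 254 reads at 4 hpf and 91 at 2 hpf (2.79), and its site was listed at neither 0 nor 6 hpf. cyp26a1, which degrades retinoic acid, had 198 reads at 4 hpf and 233 at 2 hpf (0.850). Its site was also listed at 0 hpf, at 26.5% of 848 reads. oep, the Nodal co-receptor, was listed at 2 hpf and not at 4 hpf.

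**Figure D3:**
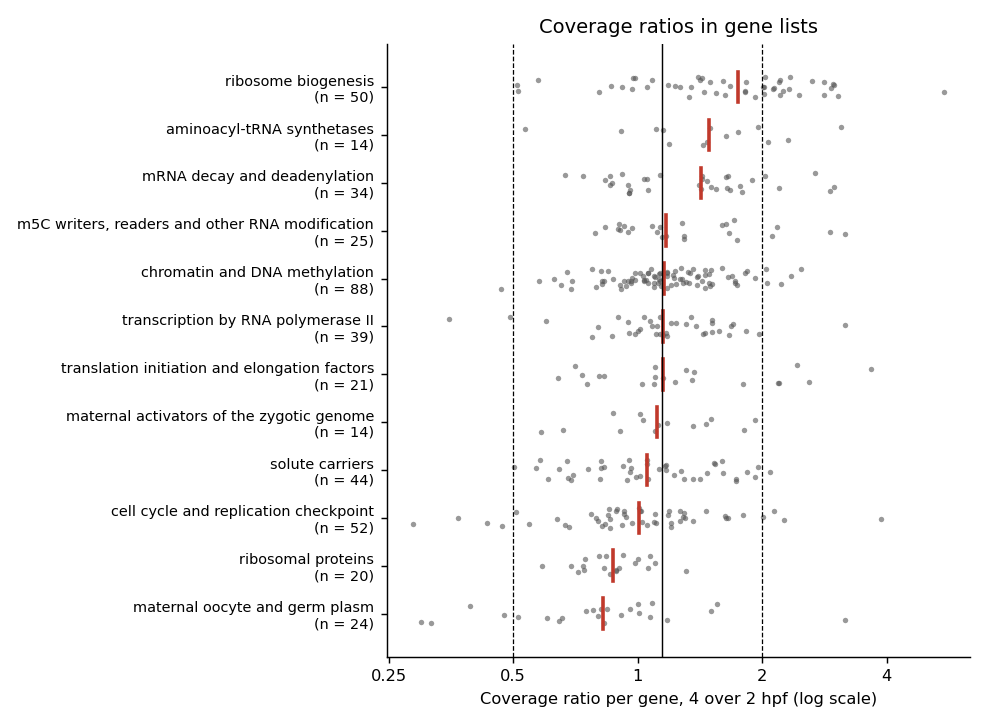
Coverage ratio of 4 over 2 hpf on a log scale, 1 point per gene with a shared site, for the 12 lists with at least 10 such genes (vertical scatter within a row has no meaning). Red bars are list medians, the solid line is the median of all genes (1.15) and the dashed lines mark 2-fold. Ribosome biogenesis lies farthest to the right with a median of 1.74, and oocyte and germ plasm genes farthest to the left with 0.824. After scaling by the median ratio both stay on their side of 1, at 1.5 and 0.709.

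Levels differed little between the stages at most shared sites. The median level was 21.8% at 4 hpf and 22.8% at 2 hpf. The median of the change per site was -0.635 percentage points (-0.778 to -0.454), the middle 50% of sites lay between -3.85 and 2.64 points, and 66.0% of sites stayed within 5 points. Levels at the 2 stages were strongly related across sites (Pearson r 0.944, a description). The change of level had almost no relation with the log2 coverage ratio (r -0.053, a description over sites of the same 2 pools). All values of this paragraph are of shared sites, which passed the minimum level and coverage of the lists at both stages. A site whose level crossed the minimum between the stages is not among them. The 1302 sites listed at 4 hpf only and the 1618 at 2 hpf only are left out, so their changes of level are not described here.

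Read numbers of C and T were tested at each shared site. Fisher's exact test, two-sided and adjusted over 4587 sites, called 88 sites higher at 4 hpf (1.92%) and 185 lower (4.03%). The higher sites had a median change of 10.8 points and lay in 88 genes, and the lower sites had a median of -8.98 points and lay in 177 genes. A difference of at least 10 points was found at 49 higher and 79 lower sites. Fisher's test takes reads as independent, and a z test that allows for extra spread kept 14 higher (0.305%) and 27 lower sites (0.589%). The size of that spread was set from the differences between 4 and 2 hpf themselves, since no values per library were available. A real change of level at many sites would thus be counted as spread. In simulated sets of 4587 sites with that spread, Fisher's test called 153 to 186 unchanged sites. Many of its calls here may therefore be false, if that spread is noise between pools. The z test missed most small changes in the same sets. For a change of 0.1 in the level as a fraction, it found 4.5% of rises and 16% of falls. For a change of 0.2 it found 56.5% and 62.5%. A call lost with extra spread does not show that the level was unchanged. Called sites were deep, with a median of 640.5 reads at 4 hpf and 625 at 2 hpf for the higher sites and of 904 and 619 for the lower ones, against 213 and 183 for all shared sites.

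The largest fall was at yy1a, the gene with the fourth largest coverage ratio. Its site on chromosome 17 (position 30921983) was at 18.2% (13.0 to 24.8) at 4 hpf, 30 of 165 reads, and at 82.9% (68.7 to 91.5) at 2 hpf, 34 of 41 reads (Fisher's exact test, adjusted p = 3.13e-12, and 1.74e-10 with extra spread). C reads were thus near equal at the stages, while T reads were 135 at 4 hpf and 7 at 2 hpf. Of the 185 sites called lower, 19 had this form, with at least 2-fold more T reads at 4 hpf and C reads between 0.8 and 1.25 times those at 2 hpf. Others were eftud2, a GTPase of the spliceosome, with 230 C and 758 T reads at 4 hpf and 225 C and 315 T reads at 2 hpf, and PDPR, a regulator of pyruvate dehydrogenase, with 213 C and 72 T reads at 4 hpf and 184 C and 15 T reads at 2 hpf. Over all 185 sites, C reads fell below 0.8 times at 76, stayed between 0.8 and 1.25 times at 82 and exceeded 1.25 times at 27. A site called lower must have a larger ratio of T than of C reads, and reads were not scaled for depth. These counts therefore describe the called sites only, and their cause was not tested.

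Large falls were also found at sites covered by 100 reads or more in each stage. tm9sf4, a membrane protein of the transmembrane 9 family, was at 48.5% in 134 reads at 4 hpf, against 89.2% in 222 reads at 2 hpf (Fisher's exact test, adjusted p = 2.84e-14). Here the 2 hpf value stood apart from both neighbours, as the site was at 40.6% at 0 hpf and 33.3% at 6 hpf.

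Further falls were found at other genes. snx25, a sorting nexin, was at 21.7% at 4 hpf and 51.8% at 2 hpf, and the scaffold gene magi3 at 15% at 4 hpf and 40.9% at 2 hpf. EPC1, a subunit of the NuA4 histone acetyltransferase, was at 61.7% at 4 hpf and 84.3% at 2 hpf (Fisher's exact test, adjusted p = 0.00291, and 0.0480 with extra spread). The histone H3 gene hist2h3c was at 14.9% in 335 reads at 4 hpf, against 40.6% in 266 reads at 2 hpf, with the limit that near-identical histone genes can share reads. All 5 of these falls stayed past the threshold with extra spread.

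The largest rise with at least 100 reads was at BAG6 (ENSDARG00000077531), a chaperone of tail-anchored and misfolded proteins, on chromosome 19 (position 31725125). It was at 39.4% (36.7 to 42.1) in 1214 reads at 4 hpf, against 11.9% (9.65 to 14.6) in 664 reads at 2 hpf (Fisher's exact test, adjusted p = 2.80e-35, and 7.23e-10 with extra spread). At 0 and 6 hpf it was at 33.3% and 32.2%, so the 2 hpf value was the low one. ppp1r13bb, of the ASPP family of p53-binding proteins, was at 52.5% in 1392 reads at 4 hpf, against 33.6% in 958 reads at 2 hpf (Fisher's exact test, adjusted p = 4.65e-17). Its site was at 49.8% at 0 hpf and 41.2% at 6 hpf.

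mettl13, which methylates elongation factor 1A in mammals, was at 39.8% at 4 hpf and 16.7% at 2 hpf (Fisher's exact test, adjusted p = 0.000858, and 0.0396 with extra spread). The last 3 of the 6 largest rises lost their call with extra spread. lcmt2, a tRNA-modifying enzyme, was at 47.9% at 4 hpf and 29.1% at 2 hpf (adjusted p = 0.0469 by Fisher's exact test and 0.283 with extra spread). The unnamed gene ENSDARG00000037422 was at 40.4% at 4 hpf and 21.9% at 2 hpf (0.248 with extra spread). PGS1, an enzyme of cardiolipin synthesis, was at 37.0% at 4 hpf and 18.7% at 2 hpf (0.229 with extra spread).

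Called sites were also read at the stages outside the pair. Of the 88 sites called higher at 4 hpf, 64 were listed at 0, 2, 4 and 6 hpf. The 4 hpf level lay outside the range of the other 3 stages at 43 of them and the 2 hpf level at 24. Of the 185 sites called lower, 106 were listed at all 4 stages, with the 4 hpf level outside the range of the others at 13 and the 2 hpf level at 87. These counts describe sites that were chosen for a difference between 4 and 2 hpf.

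**Figure D4:**
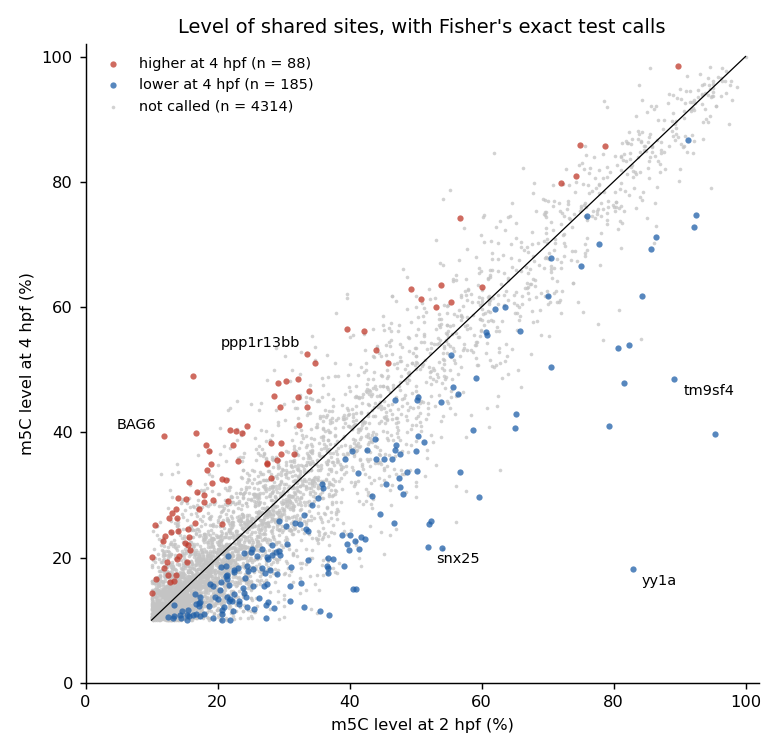
Level of the 4587 shared sites at 2 hpf (x axis, %) and at 4 hpf (y axis, %), 1 point per site, with sites called by Fisher's exact test in red (88 higher at 4 hpf) and blue (185 lower). The line marks equal levels, and no point lies under 10%, the minimum of the lists. yy1a (18.2% at 4 hpf, 82.9% at 2 hpf) lies farthest below the line.

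Called changes of level were also read in list members. In pabpc1a, the cytoplasmic poly(A)-binding protein, 4 of its shared sites were called lower. The deepest was at 25.1% in 22639 reads at 4 hpf, against 30.4% in 16280 reads at 2 hpf. In eef1a1l1, elongation factor 1 alpha, 2 sites were called lower, one at 11.7% in 24471 reads at 4 hpf, against 15.6% in 20377 reads at 2 hpf. None of these 6 sites kept its call with extra spread, whose adjusted p lay between 0.605 and 0.984. dus1l was at 69.3% at 4 hpf and 85.6% at 2 hpf (Fisher's exact test, adjusted p = 3.35e-13, and 0.00287 with extra spread), and its coverage was 2-fold higher at 4 hpf. In igf2bp3, 1 of 2 adjacent sites was called lower, at 40.3% in 593 reads at 4 hpf, against 58.7% in 189 reads at 2 hpf (Fisher's exact test, adjusted p = 0.000576, and 0.0631 with extra spread, so the call was lost). The neighbouring cytosine was at 21.3% at 4 hpf and 25.5% at 2 hpf and was not called.

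Sites of 1 gene did not always move together. Of 925 genes with at least 2 shared sites, 13 had at least 2 called sites. In 6 of them (ctnna1, eef1a1l1, fnbp1l, pabpc1a, pphln1 and ubc) all called sites were lower at 4 hpf, in 0 all were higher, and in 7 (aclya, atrip, espl1, hps5, ldhba, wdr24 and zc3hc1) they were called both ways. In zc3hc1, which codes for a nuclear protein of the mitotic entry control, the site at position 14074727 of chromosome 4 was at 74.2% in 989 reads at 4 hpf, against 56.8% in 926 reads at 2 hpf. The site at 14073739 was at 11.5% in 52 reads at 4 hpf, against 35.6% in 118 reads at 2 hpf. In atrip, the partner of the checkpoint kinase ATR, the site at position 10658178 of chromosome 22 was at 45.9% at 4 hpf and 28.5% at 2 hpf, and that at 10663870 at 29.8% at 4 hpf and 43.5% at 2 hpf. With extra spread the site that was higher at 4 hpf kept its call in both genes (beta-binomial z test, adjusted p = 0.00287 for each), and the site that was lower did not (0.176 in zc3hc1, 0.105 in atrip). No other called site of the 7 genes kept its call.

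Genes with the most shared sites showed no called change. tpra, which codes for a protein of the nuclear pore basket, had 9 shared sites on chromosome 2, whose coverage ratios lay between 1.16 and 1.5, and whose median level was 27.5% at 4 hpf and 27.4% at 2 hpf. The chromatin remodeller chd7 had 8 sites with ratios between 0.911 and 1.53. Its levels spanned the whole scale, 97.7% at 4 hpf and 97.0% at 2 hpf at position 21563862 and 12.1% and 10.5% at 21564140, and neither was called. SPEN, a transcriptional co-repressor, and magi1b, a scaffold of cell junctions, had 8 sites each, with median levels of 24.6% and 18.2% at 4 hpf and of 21.5% and 23.1% at 2 hpf. Their median changes per site were smaller, 0.495 points in SPEN and -0.512 in magi1b, while that of tpra was -4.39 points. lrp1b, a lipoprotein receptor family gene, had 7 sites with ratios between 1.02 and 1.80.

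Levels were compared between the coverage classes of the genes. In genes 2-fold higher at 4 hpf, the median change of level over 388 sites was -1.15 points (-1.57 to -0.487). Of these sites, 5 were called higher (1.29%) and 19 lower (4.90%), near the 1.92% and 4.03% of all shared sites. In genes 2-fold lower, the median change was -0.488 points (-1.73 to 0.516) over 124 sites, with 1 called higher (0.806%) and 6 lower (4.84%). In the other genes it was -0.595 points over 4075 sites. C and T reads thus moved nearly together, by medians of 2.17 and 2.32 times in the higher genes and of 0.411 and 0.440 times in the lower ones. Shared sites had to reach the minimum level of the lists at both stages. A site with more T reads and unchanged C reads could fall below that minimum and leave the set. The joint rise of C and T reads in the higher genes can therefore follow in part from the filter, and its share was not tested. The 28 sites with a coverage ratio of at least 3 had a median change of -3.68 points with an interval that reached above 0 (-9.30 to 0.214). Of these, 3 were called lower (10.7%, against 4.03% of all shared sites), a small count.

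Sites listed at 1 stage only were shallower and less methylated than shared ones. The 1302 sites listed at 4 hpf and not at 2 hpf made up 22.1% of the 4 hpf list, and the 1618 sites listed at 2 hpf and not at 4 hpf 26.1% of the 2 hpf list. Their median coverage was 71 reads for the 4 hpf sites and 78 for the 2 hpf sites, and their median levels were 13.3% and 13.0%. A level under 15% was found at 60.9% of those at 4 hpf only and 65.1% of those at 2 hpf only, against 26.0% of shared sites at 4 hpf and 23.2% at 2 hpf. Many therefore lie close to the minima of the lists. A missing site can have been below either minimum or have failed another filter of the authors, and these cases were not separated.

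About the same share of both sets lay in a gene with a site in the other list, 668 (51.3%) of those at 4 hpf only and 842 (52.0%) of those at 2 hpf only. Where such a gene had a shared site, its coverage ratio gave the coverage to be expected at the other stage. This was under 20 reads for 22 of 557 sites of 4 hpf and 10 of 730 sites of 2 hpf, and at or above that minimum for the others. Within 10 nt of a site in the other list lay 14 of those at 4 hpf only and 24 of those at 2 hpf only. In the list of 0 hpf were 18.6% of those at 4 hpf only and 26.6% of those at 2 hpf only, and in that of 6 hpf 11.0% and 5.75%. The same shares for shared sites were 64.1% and 48.5%.

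**Figure D5:**
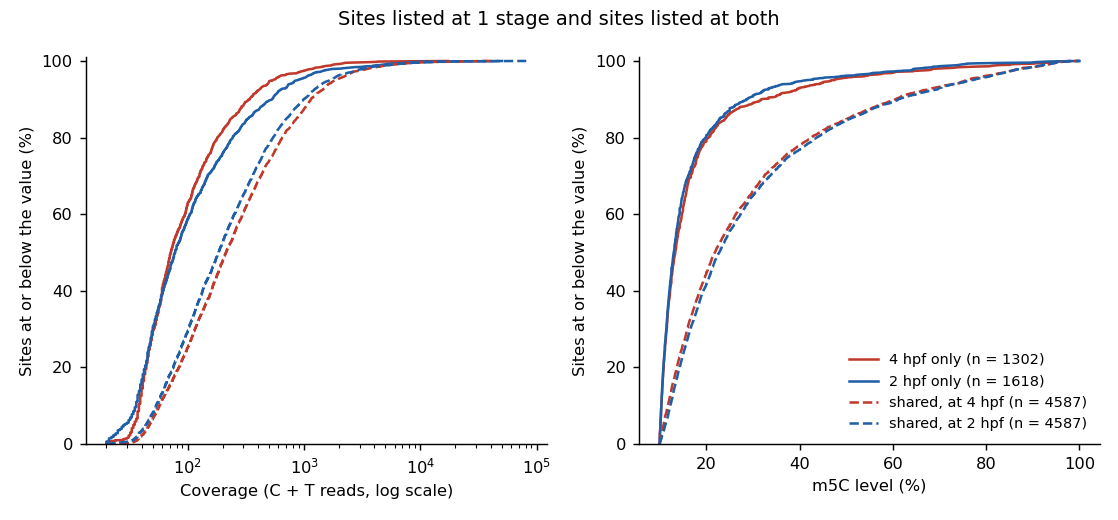
Share of sites (y axis, %) at or below a given coverage (left, C + T reads, log scale) and a given m5C level (right, %), for sites listed at 4 hpf only (red, solid), at 2 hpf only (blue, solid) and at both stages (dashed). The solid lines lie left of the dashed ones in both panels, with median levels of 13.3% and 13.0% for sites of 4 hpf and 2 hpf only against 21.8% and 22.8% for shared sites at 4 hpf and 2 hpf.

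Strong sites listed at 1 stage were few. With at least 100 reads and a level of at least 20%, there were 15 of 1302 at 4 hpf only and 15 of 1618 at 2 hpf only. The highest level at 4 hpf belonged to lmcd1, a LIM domain protein, on chromosome 22 (position 42149888), at 90.5% (83.8 to 94.6), 105 of 116 reads. The site was at 70.0% of 40 reads at 6 hpf, and the gene had no site in the 2 hpf list. rab3gap1, which activates a Rab GTPase, was at 31.4% of 121 reads at 4 hpf and at 33.9% at 6 hpf. Its site was also listed at 0 hpf, at 18.9% of 37 reads. tp53rk, a kinase of the KEOPS complex, was at 27.0% of 196 reads at 4 hpf and at 25.9% at 6 hpf. GPR125, an adhesion receptor, was at 26.3% and wu:fe17e08 at 29.8% at 4 hpf, and neither site was in the lists of 0 or 6 hpf.

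Of the sites at 2 hpf only, zgc:110239 had the highest level at this depth, 35.5% (27.1 to 44.8) of 110 reads, and was at 39.8% of 837 reads at 0 hpf. sesn2, a stress-induced sestrin, was at 28.5% of 123 reads at 2 hpf and at 32.2% of 2168 reads at 0 hpf. The gene had a coverage ratio of 0.358, by which 44.1 reads were to be expected at 4 hpf. The cyclin ccnb3 was at 30% of 130 reads at 2 hpf and at 12.9% of 194 reads at 0 hpf, and had no site in the 4 hpf list. topbp1, an activator of the replication checkpoint, was at 29.9% of 201 reads at 2 hpf, and its gene ratio of 1.02 gives an expected 204.3 reads at 4 hpf, well above the minimum of the lists. CABZ01044611.1 was at 26.5% at 2 hpf and at 17.8% at 0 hpf.

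Whole genes were also listed at 1 stage only. Of 4575 genes in either list, these were 585 at 4 hpf and 713 at 2 hpf, while 3277 were in both lists. The counts of the gene lists below are to be read beside these numbers of all genes, and none was tested. Of the 69 listed genes of the cell cycle, 5 were in the 4 hpf list only and 11 in the 2 hpf list only, against 585 and 713 of all 4575 genes. The share in the 2 hpf list only was thus near that of all genes. The genes of the 2 hpf list only included the mitotic kinase plk1, with 2 deep sites, 20.6% of 4084 reads and 11.4% of 3065 reads. The condensin subunit ncapd2 was at 12% of 774 reads at 2 hpf. Of the 48 listed genes of mRNA decay, 8 were in the 4 hpf list only and 6 in the 2 hpf list only, both near the shares of all genes. Those of the 4 hpf list only included the deadenylase CNOT6, at 13.8% of 138 reads. Another was skiv2l, a helicase of the exosome cofactor, at 39.1% of 69 reads. Those of the 2 hpf list only included exosc10. Very deep sites can also be absent from a list. rps20 was at 11.3% of 17254 reads at 4 hpf and not listed at 2 hpf, and h3f3a at 10.2% of 17066 reads at 2 hpf and not listed at 4 hpf, both close to the minimum of 10%.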

How the data were processed

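Bisulfite-converted polyadenylated RNA of wild-type AB embryos was sequenced, 2 libraries per stage. Per the labels and the study's methods, the authors mapped trimmed reads with HISAT2 (listed as 2.10) to the Zv9 assembly converted in silico and then to transcripts, dropped poorly converted reads, tested each site against the conversion of its gene and combined the replicates. The deposited coverage is the read count, C and T together. The m5C level was deposited as a fraction, given here in percent. The p-value the authors deposited per site was not used. Level times coverage was a whole number within 1e-06 at every site, which gave the C and T reads.

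Sites were matched by position. Levels of shared sites were compared by Fisher's exact test (two-sided, scipy 1.17.1, Benjamini-Hochberg adjustment over 4587 sites, threshold 0.05). A z test with beta-binomial variance (correlation of reads 0.00232, set so that the median statistic is that of unchanged sites) allowed for extra spread. A logistic model across replicates was not possible on pooled reads. Gene coverage was the median over shared sites, and genes past 2-fold were counted without a test. Intervals are Wilson intervals for levels, exact binomial intervals for coverage ratios and order-statistic intervals for medians, at 95%. Depth is the coverage of a site. Both tests of sites were first run on simulated data.

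The genes named are the 10 largest and 10 smallest coverage ratios past 2-fold with a summed coverage of at least 100, the 6 largest rises and 6 largest falls of level among called sites covered by at least 100 reads in each stage, the 5 highest levels listed at each stage only with at least 100 reads, the 5 genes with the most shared sites, and list members past 2-fold or with a called site, with up to 4 further examples per list by coverage. Further genes (the yy1a and other sites with equal C reads, genes called both ways, low members of lists, and deep sites missing from a list) were chosen after their values were seen. Members and lists were chosen with earlier results of these data known, and 2 of the 15 lists, ribosome biogenesis and aminoacyl-tRNA synthetases, were added after values had been seen. Alternatives covered coverage and level minima, the test, effect size, scaling for depth, the summary per gene and site matching. A table of current gene names, used only to match lists, held 3779 (82.6%) of the 4575 IDs. Of the 6 falls that the rule selects, 1 is not reported here. Sequence motifs were not analysed here.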

Additional observations from a re-analysis of the deposited data

How the results depend on the processing

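Alternatives were run for the counts and medians of the comparison and for each gene or site named by rule. With at least 100 reads, 183 genes were 2-fold higher and 59 lower at 4 hpf, and 488 sites were listed at 4 hpf only and 669 at 2 hpf only. With a level of at least 20%, the median level change was -0.888 points, and 275 sites were at 4 hpf only and 323 at 2 hpf only. Extra spread, set from the compared stages themselves, left 14 sites higher and 27 lower, and a level difference of at least 10 points 49 and 79. The mean change weighted by coverage was -1.01 points. Division by the median coverage ratio gave 139 genes higher and 175 lower. All listed sites of a gene gave 150 lower genes. Genes with at least 2 shared sites gave 67 higher and 22 lower, and counting intervals past 2-fold at every site 94 and 38. Sites in genes listed at both stages numbered 668 at 4 hpf only and 842 at 2 hpf only. The coverage ratio of fbxo30b turned to 0.709 over all its listed sites. The causes were not tested, except that the smaller sets follow from the stricter criteria themselves. The other 25 alternative values of these counts and medians stayed within 1.5 times, or kept direction and size. For single genes and sites, 117 values kept their direction and side of the threshold or counting interval, 7 coverage ratios left their interval in the same direction and 3 sites lost their call.

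No paired analysis was possible because both libraries of a stage were merged before deposit, and no library was left out for the same reason. Depth limits single sites, and 28.4% of the sites listed at 4 hpf only and 29.4% of those at 2 hpf only had under 50 reads.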
